A study of Mus musculus with 78 samples.

Results

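Retinal ganglion cells were compared with amacrine cells on the arrays of a single labelled batch, batch 3, of a survey of adult mouse retina cell types. The 21 arrays, of 78 in the series, were chosen by their labels and not by any measured value: 9 from 3 ganglion cell lines and 12 from 4 amacrine cell lines, each line with 3 biological replicates. Every sample was the RNA of 200 fluorescent cells sorted from retinas dissociated for 15 min, hybridised to a whole-transcript array that reads each gene through a set of short probes (a probe set). All 19446 probe sets listed with a single gene symbol were considered, and the 13296 of these that exceeded the median intensity of the whole table, 9.01, in the mean of at least 1 of the 7 lines were tested.

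The ganglion lines were Drd4 (Tg(Drd4-EGFP)W18Gsat/Mmnc), Grik4 (C57BL/6-Tg(Grik4-Cre)G32-4Stuj mice crossed to Rosa26-LSL-RFP) and Opn4 (mOpn4-Cre1D4 crossed to Rosa26-LSL-RFP, cells labelled as melanopsin ganglion cells). The amacrine lines were Arc (Tg(Arc-EGFP)194Gsat/Mmcd, the set called Arc 3rd), Igfbp2 (Tg(Igfbp2-EGFP)17Gsat), Rgs5 (Tg(Rgs5-EGFP)24Gsat) and Crh (Tg(Crh-Cre)282Gsat/Mmnc crossed to Rosa26-LSL-RFP). All 7 carry the same background label, C57BL/6J mixed with FVB/N-Swiss Webster hybrid, and the labels give no age beyond adult. The growth protocol states that mice of one supplier carried a recessive allele of photoreceptor degeneration before they were backcrossed. Each line stands for the cells its transgene marks, and a Cre line also marks cells that expressed Cre only earlier in life. The fluorescence label is RFP for Drd4, Grik4, Opn4 and Crh and GFP for Arc, Igfbp2 and Rgs5, although the allele name of Drd4 holds EGFP. By the labels, class and fluorescence can therefore be told apart only through Crh. If Drd4 cells carried EGFP, as the allele name reads, they could be told apart through Drd4 as well.

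Ganglion cells are the output neurons of the retina. They send long axons through the optic nerve to the brain and release glutamate there, so that neurofilaments, axonal proteins and the vesicular glutamate transporter are textbook markers of the class. Amacrine cells are interneurons of the inner retina, most of which have no axon and release GABA or glycine onto bipolar, ganglion and other amacrine cells. The comparison asks which transcripts separate these neighbouring inner retinal classes in samples that share a batch label.

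Arrays were first compared with each other. Across the 13296 tested probe sets, which are not independent of each other, 4 arrays correlated with the other 20 at a median r below 0.8: Drd4 replicate 1 (0.713), Grik4 replicate 2 (0.785), Crh replicate 2 (0.692) and Crh replicate 3 (0.768). Those 4 arrays held between 1063 and 1538 tested probe sets at the floor, against 104 to 598 on the other 17. The floor, 3.99, is the highest intensity up to which the lowest values of an array stood in order of probe set number. Normalisation gave all arrays the same set of values, so over the whole table each held the same share at the floor, 10.5%. The counts therefore differ in which probe sets lay there, not in how many of the whole table did. The 4 arrays correlated with each other at 0.781 to 0.854, with the rest at 0.643 to 0.882, and the rest with each other at 0.840 to 0.978. Results that rest on them are given with and without them below, and without them the Crh line is a single array.

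**Figure D1:**
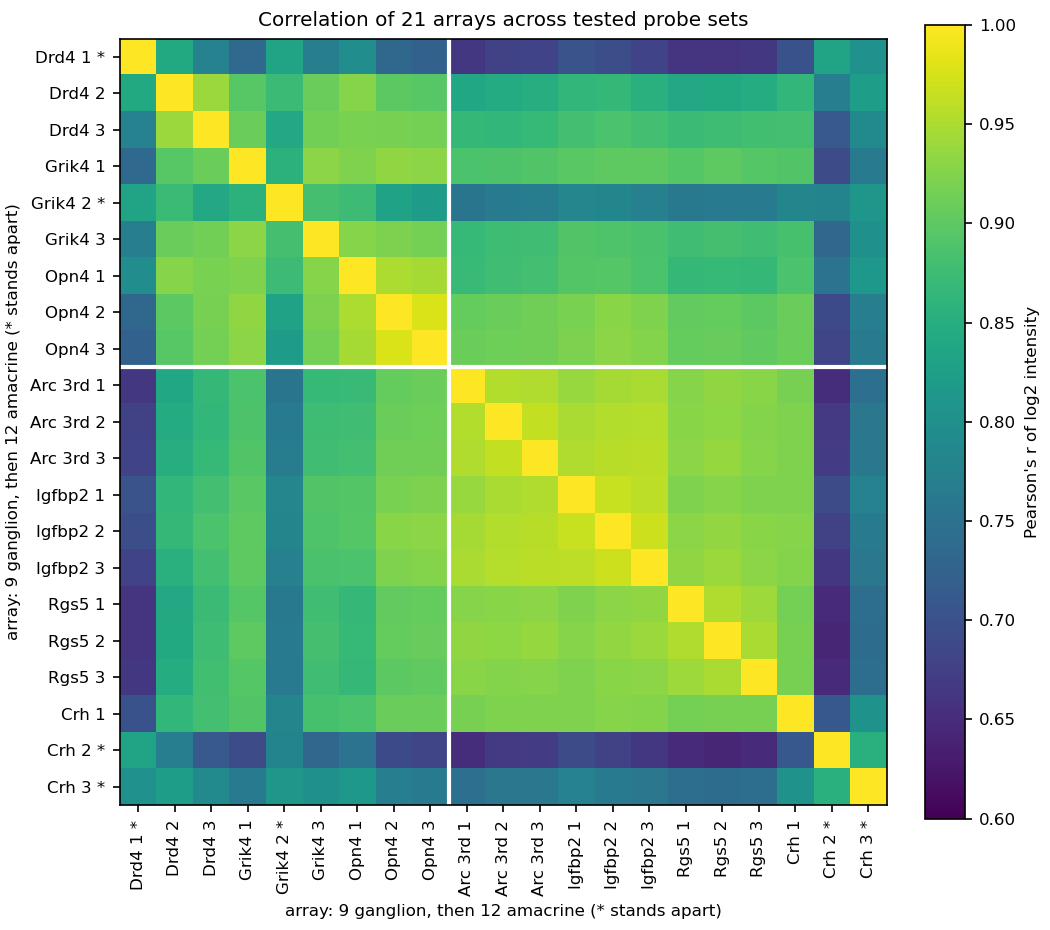
Pearson's r of log2 intensity between the 21 arrays, in the order Drd4, Grik4, Opn4, Arc 3rd, Igfbp2, Rgs5 and Crh on both axes, with white lines between the 9 ganglion and 12 amacrine arrays and an asterisk at each array that stands apart. The 4 marked rows are darker than the others, down to 0.643, and both classes hold 2 of them.

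The 4 genes below name the classes most directly, and all followed the labels on every array. The markers of ganglion identity, Sncg, Nefl and Slc17a6, were called higher in ganglion lines by the test below, and Slc32a1, the vesicular transporter of GABA and glycine that marks inhibitory neurons, had lower values there. In bulk samples of this kind, fewer cells of a type and less RNA per cell cannot be told apart. Intensities below are normalised array values on a linear scale, and the mean of a line or class is the mean of log2 values turned back to that scale. Differences are ganglion minus amacrine means of log2 intensity over lines (n = 3 against 4), with the standard error and the adjusted p of limma over all 13296 probe sets. A probe set was called when that p was below 0.05 and the difference at least 1 log2 unit in size. Counts of list members at an unadjusted p below 0.05 are given below without the share over all probe sets. They therefore cannot show an excess in a list.

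Sncg, which encodes gamma-synuclein, ranged from 1095 to 1789 (median 1661) on ganglion arrays and from 12.1 to 65.2 (median 24.6) on amacrine arrays. The lowest ganglion array lay far above the highest amacrine array. The difference was 5.96 ± 0.38 log2 units, a 62.1-fold ratio (adjusted p = 0.00076), and it was the largest positive difference of all probe sets called. The related gene Sncb, beta-synuclein, averaged 14.4 in ganglion and 24.2 in amacrine lines (difference -0.75 ± 0.58, adjusted p = 0.66). Of the 3 synuclein-list genes tested 1 was called higher and 0 lower, where 52 of all 13296 probe sets (0.391%) were called higher.

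Nefl, the light neurofilament subunit of large axons, ranged from 369 to 686 (median 512) on ganglion arrays and from 6.47 to 89.9 (median 38.9) on amacrine arrays. The arrays of the classes did not overlap, and the 3 ganglion lines were close to each other at 538 in Drd4, 515 in Grik4 and 508 in Opn4. The difference was 4.15 ± 0.57 (adjusted p = 0.024), and the call was lost (adjusted p between 0.06 and 0.12) when any of the lines Drd4, Grik4, Opn4, Arc or Rgs5, or replicate 1 of Crh, was left out.

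Slc17a6, the vesicular glutamate transporter VGLUT2 that loads glutamate into the vesicles of ganglion cell axons, ranged from 19 to 99.6 (median 40.9) on ganglion arrays and from 5.21 to 15.6 (median 6.66) on amacrine arrays. The classes did not overlap, although the ganglion lines spread from 27.5 in Grik4 to 59.6 in Drd4. The difference was 2.53 ± 0.32 (adjusted p = 0.016). Leaving out Drd4, Opn4, Arc, Igfbp2, Rgs5 or the first Crh array ended the call, with differences of 2.27 to 2.52 and adjusted p up to 0.073. Of the 5 glutamate-release genes tested 1 was called higher and 0 lower. Slc17a7, the other main vesicular glutamate transporter of the brain, averaged 10.3 in ganglion and 4.94 in amacrine lines (difference at least 1.05, adjusted p = 0.27).

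Slc32a1 ranged from 29.6 to 256 (median 112) on ganglion arrays and from 369 to 679.6 (median 436) on amacrine arrays. No ganglion array reached the lowest amacrine array. The ganglion lines differed among themselves, with 215 in Grik4, 106 in Drd4 and 39.6 in Opn4, and the difference of -2.21 ± 0.49 missed the threshold (adjusted p = 0.12). Without the 4 arrays that stand apart it was -2.23 and passed (adjusted p = 0.044).

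Upstream sequences of the genes that define the transmitter and identity contrast were read from the RefSeq promoter table (build GRCm38.p6), each as the 250 bases before the annotated start on the gene's strand, 5′ to 3′. They show the DNA in front of a pair of genes that were higher in ganglion lines (Sncg, at chr14:34374670-34374919 on the minus strand, and the first of 2 entries for Slc17a6, at chr7:51621580-51621829 on the plus strand) and of a pair that were lower in intensity (Gad2, at chr2:22622077-22622326, and Slc32a1, at chr2:158610508-158610757, both on the plus strand). Capitals mark matches, on either strand, to the TATA box (TATAAA), the GC box (GGGCGG) or a homeodomain core (TAATTA), motifs that share no overlap with each other in these windows.
Sncg: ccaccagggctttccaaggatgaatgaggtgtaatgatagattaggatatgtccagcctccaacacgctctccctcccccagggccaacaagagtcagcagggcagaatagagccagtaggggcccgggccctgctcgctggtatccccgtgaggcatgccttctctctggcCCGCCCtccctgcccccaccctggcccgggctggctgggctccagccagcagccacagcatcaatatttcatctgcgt
Slc17a6: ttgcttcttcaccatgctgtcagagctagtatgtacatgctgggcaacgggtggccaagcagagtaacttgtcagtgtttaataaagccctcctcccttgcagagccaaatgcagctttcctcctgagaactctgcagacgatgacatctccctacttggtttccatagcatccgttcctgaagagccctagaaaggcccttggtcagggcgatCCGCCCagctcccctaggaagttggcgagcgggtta
Gad2: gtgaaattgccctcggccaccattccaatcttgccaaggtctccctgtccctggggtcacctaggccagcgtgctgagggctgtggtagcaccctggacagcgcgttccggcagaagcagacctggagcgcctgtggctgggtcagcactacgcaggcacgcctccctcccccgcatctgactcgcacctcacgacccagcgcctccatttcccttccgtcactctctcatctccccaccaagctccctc
Slc32a1: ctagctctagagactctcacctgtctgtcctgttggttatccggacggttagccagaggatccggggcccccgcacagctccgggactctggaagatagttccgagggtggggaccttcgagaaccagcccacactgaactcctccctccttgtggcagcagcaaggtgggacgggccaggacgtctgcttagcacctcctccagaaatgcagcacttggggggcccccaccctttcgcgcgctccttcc
The capitals in Sncg and Slc17a6 are 1 match each to the GC box on the opposite strand, starting 78 bases before the start of Sncg and 36 before that of Slc17a6, and neither window of the other pair holds any of the 3 motifs. The GC box occurs in 32.9% of 27025 promoter windows of this length, the TATA box in 13% and the homeodomain core in 4.9%. Among the 32 genes called higher that have an entry, the counts were 21 with the GC box, 2 with the TATA box and 2 with the homeodomain core. The 27025 windows were not limited to tested genes, and a gene can have more than 1. Their shares are therefore not those of tested genes, and a difference in share was not tested. The GC content of the windows printed was 61.6% for Sncg, 53.2% for Slc17a6, 64% for Gad2 and 62.4% for Slc32a1, against a median of 52% over all windows. These matches are a description of the letters alone.

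Over all 13296 probe sets, 52 were called higher in ganglion lines (0.391%) and 6 lower (0.0451%). The 52 are 52 genes, of which 50 are protein-coding and 1 is a long non-coding RNA. Their differences had a median of 2.14 log2 units, with ratios from 2.19-fold to 62.1-fold. The 9 ganglion and 12 amacrine arrays did not overlap in 39 of the 52 and in 5 of the 6; over all tested probe sets 85 (0.639%) lay wholly above and 16 (0.12%) wholly below the amacrine arrays. The median difference over all tested probe sets was 0.01. With each array centred on its median over the probe sets above the floor on all 21 arrays, that difference was -0.10 and the counts were 35 higher and 10 lower, so that 77.8% of calls were higher, as against 89.7% without centring. The number of calls depended on which lines entered: leaving out Crh gave 467, of which 230 were higher and 237 lower, leaving out Arc, Igfbp2, Rgs5, Drd4 or Grik4 gave 19 to 28, and leaving out Crh replicate 1 or 2 gave 25 or 150. For 13 of the 58 genes (Sncg, Nrn1, Tppp3, Rbpms, Rbpms2, Jam2, Clic1, Fbxo2, Fkbp1b, Atp6ap1l, Anxa6, Crip2 and Prelid2) no line or array left out ended the call.

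Leaving out the 4 arrays that stand apart gave 192 higher calls (1.44%) and 142 lower calls (1.07%), 2.51% in either direction, among them 50 of the 52 and 5 of the 6. The exceptions were the potassium channel genes Kcnb2 (0.996) and Kcnk4 (0.93) and the transcription factor gene Mesp2 (-0.82). Of the 142 lower calls, 89 had a 3-array Crh mean at least 1 log2 unit below each of Arc, Igfbp2 and Rgs5, whereas the one Crh array kept in that fit was that far below in 3. The lines labelled RFP alone (Drd4, Grik4 and Opn4 against Crh) share their arrays with the comparison above. The signs of the called genes between these lines were therefore largely set by the choice of those genes. Drd4 is among these lines by its label, although its allele name holds EGFP. Between these lines all 52 differences were positive and 49 were at least 1, compared with 7.87% of all tested probe sets. All 6 lower ones were -1 or less there, compared with 3.17%. That fit, with 1 amacrine line, called 4 probe sets, and 1727 had an unadjusted p below 0.05.

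**Figure D2:**
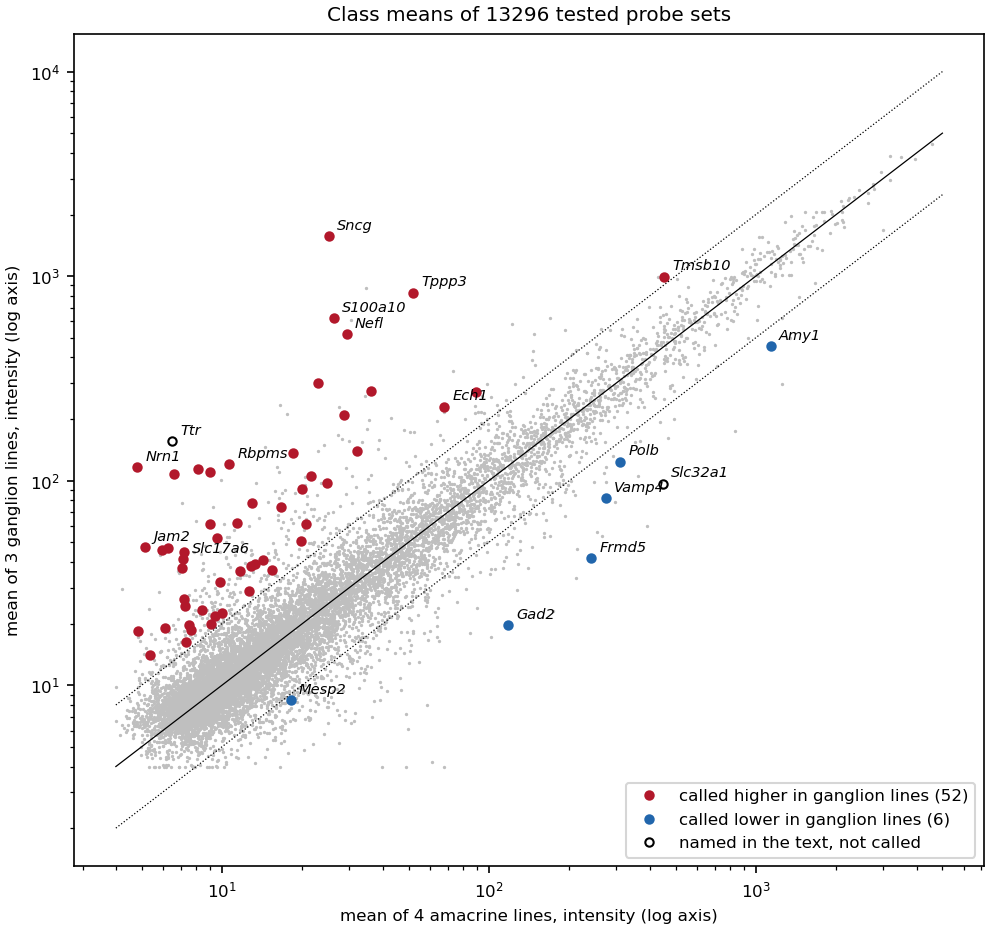
Mean intensity of each of the 13296 tested probe sets in the 3 ganglion lines (vertical, log axis) against the 4 amacrine lines (horizontal, log axis), with lines of equality (solid) and of a 2-fold ratio (dotted). The 52 probe sets called higher in ganglion lines (red) lie above the dotted line and the 6 called lower (blue) below it, and open circles are named genes that were not called.

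Ganglion cell markers had higher values in ganglion lines throughout the list. Of 15 listed genes 14 were tested, 7 were called higher and 0 lower, and all 14 differences were positive with a median of 2.62. Over all 13296 probe sets 0.391% were called higher, and 6737 differences were positive. The count of positive differences was also 10 of 10 for endothelial, 9 of 9 for pigment epithelium and 13 of 14 for microglia markers. It was 9 of 10 for bipolar and for glial markers, 6 of 8 for rod and cone and 5 of 6 for horizontal markers. Pericyte and oligodendrocyte markers had 5 of 8 and 3 of 4, and amacrine markers 3 of 12. Summed over the 14 ganglion markers, intensity ran from 2953 to 4258 on ganglion arrays and from 273 to 718 on amacrine arrays. Nrn1, which encodes the membrane-anchored neurite growth factor neuritin, ranged from 67.9 to 200.4 (median 127) on ganglion arrays and from below the floor to 13.6 (median 4.08) on amacrine arrays. Amacrine values sat at or near the floor, so the ratio was at least 24.2-fold (difference at least 4.60, adjusted p = 0.00076).

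The RNA-binding protein genes Rbpms and Rbpms2, the first of which is used to stain ganglion cells, were both called higher. Rbpms ranged from 61 to 221 (median 122) on ganglion arrays and from 7.33 to 24.9 (median 9.49) on amacrine arrays, a difference of 3.50 ± 0.36 (adjusted p = 0.0073). Rbpms2 ranged from 22.8 to 66.6 (median 46.1) on ganglion arrays and from 5.82 to 14.8 (median 6.63) on amacrine arrays, a difference of 2.64 ± 0.19 (adjusted p = 0.0012). In both genes every ganglion array was above every amacrine array.

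Jam2, a junctional adhesion molecule that marks one known ganglion cell type, ranged from 13.3 to 117 (median 47.2) on ganglion arrays and from below the floor to 12.3 (median below the floor) on amacrine arrays. The classes did not overlap, but the ganglion lines ranged from 28.7 in Opn4 to 69.1 in Grik4 (difference at least 3.20, adjusted p = 0.0065). The remaining markers passed only in part. Isl1, Nefm, Tubb3, Pou4f1 and Thy1 differed by 3.60, 2.61, 2.26, 1.73 (a lower bound) and 1.34 log2 units with adjusted p from 0.073 to 0.093, and all 5 were called without the 4 arrays, where 12 of the 14 were. Nefh, the heavy neurofilament subunit, differed by 0.41 ± 0.40 (adjusted p = 0.74) and Pou4f3 by at least 0.59 (adjusted p = 0.49).

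**Figure D3:**
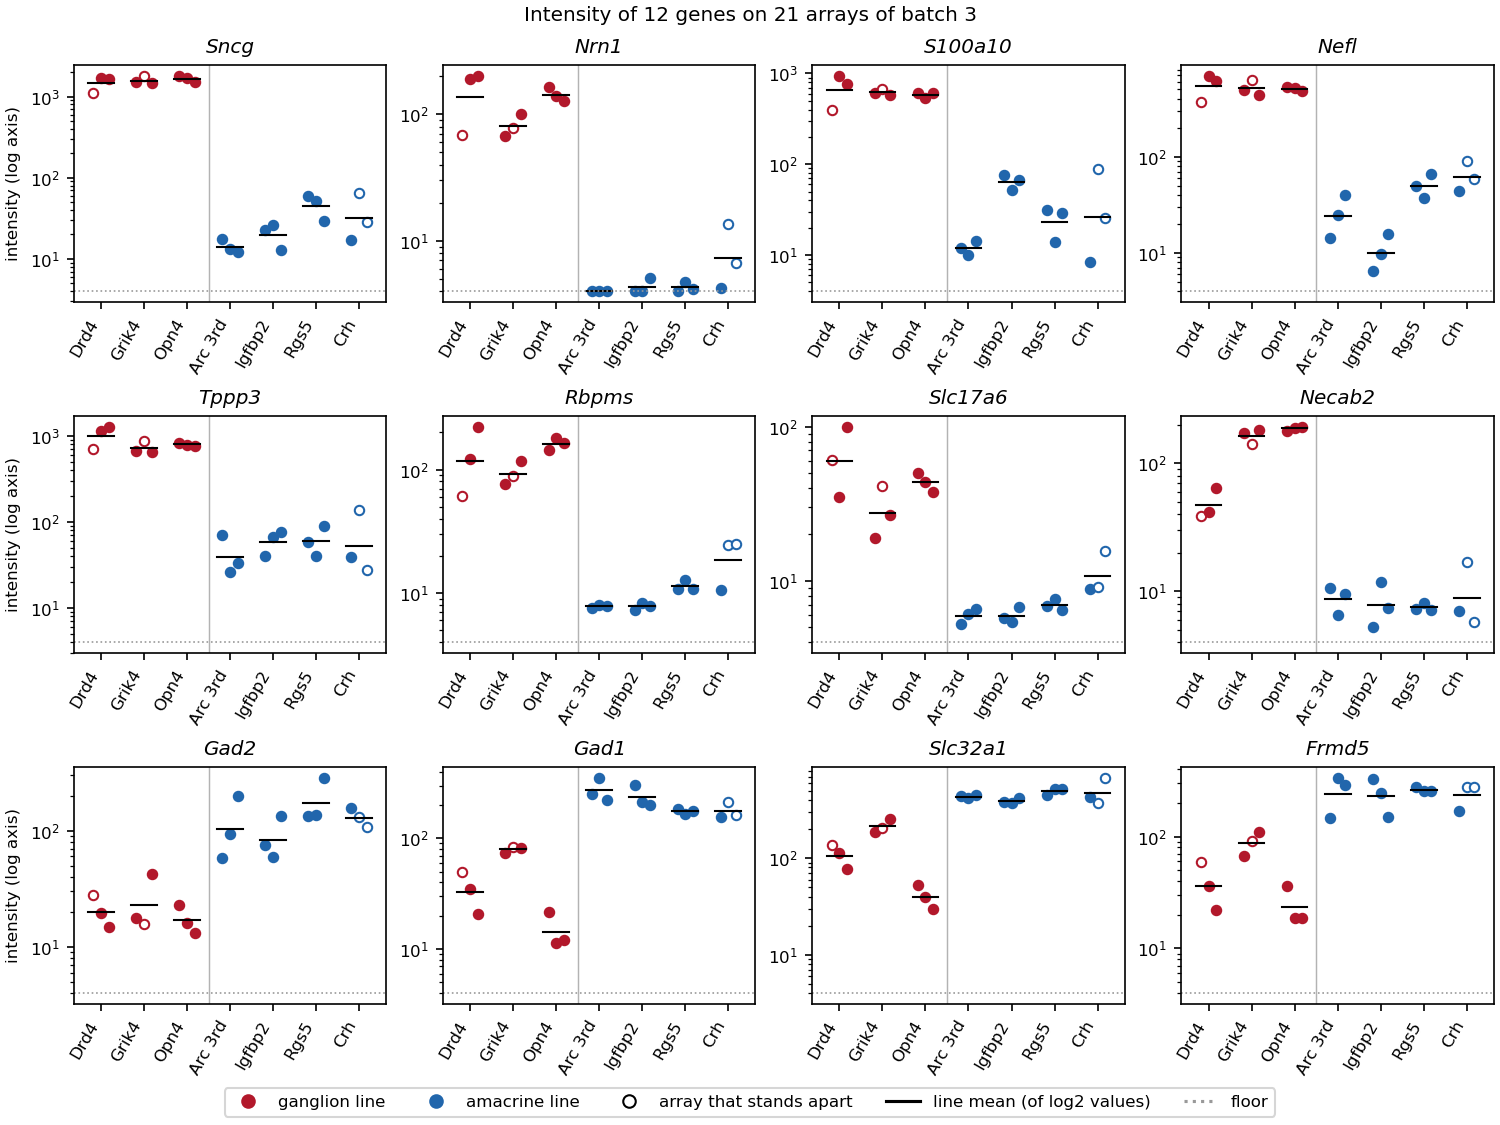
Intensity (log axis) of 12 genes on each array, by line, with ganglion lines (red) left of amacrine lines (blue), open circles for the 4 arrays that stand apart, black bars for line means and a dotted line at the floor of 3.99. In each of the 12 panels the 9 ganglion points lie wholly above or wholly below the 12 amacrine points, with the Grik4 line nearest to the amacrine lines for Slc32a1, Gad1 and Frmd5. Most of the 12 genes were named by a rule that requires such separation. Over all tested probe sets 0.639% lay wholly above and 0.12% wholly below.

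Axonal cytoskeleton genes split into a few large differences and many near 0. Of 24 tested, 2 were called higher and 0 lower, with a median of 0.29, and 5 were higher without the 4 arrays. Tppp3, a member of the tubulin polymerisation-promoting proteins, ranged from 654 to 1265 (median 787) on ganglion arrays and from 25.9 to 136 (median 49.1) on amacrine arrays. The highest amacrine array was well below the lowest ganglion array (difference 4.00 ± 0.23, adjusted p = 0.00076). Ina, alpha-internexin, ranged from 398 to 919 (median 615) on ganglion arrays and from 75.9 to 385 (median 179) on amacrine arrays (difference 1.88 ± 0.34, adjusted p = 0.069). Stmn1 and Mapt, genes of microtubule regulators that most neurons express, differed by 0.22 and 0.21 (adjusted p = 0.73 and 0.75).

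Prph, the intermediate filament gene peripherin, set the ganglion lines apart from each other. It averaged 237 in Opn4, 70.2 in Grik4 and 15.6 in Drd4, and 7.99 over the amacrine lines. All ganglion arrays were above all amacrine arrays, while the class difference of 3.00 ± 0.75 missed the threshold (adjusted p = 0.17). Tmsb10, which encodes an actin-binding thymosin, was called at a high level in both classes: it ranged from 799 to 1222 (median 1000.5) on ganglion arrays and from 290.2 to 607 (median 447) on amacrine arrays (difference 1.14 ± 0.18, adjusted p = 0.045, or 0.051 to 0.18 without any 1 line other than Crh or without any 1 of 9 of the 21 arrays).

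Genes of the axon initial segment and node, where sodium and potassium channels cluster, gave 1 higher and 0 lower calls of 19 tested, with a median of 0.30. The call was Lgi1, a secreted protein gene linked to epilepsy, which ranged from 12.2 to 116 (median 46) on ganglion arrays and from below the floor to 23.1 (median 4.35) on amacrine arrays. The ranges overlapped, and the ganglion lines ran from 22.2 in Drd4 to 68.7 in Opn4 (difference at least 2.93, adjusted p = 0.044, or 0.052 to 0.2 without Arc, Igfbp2, Rgs5, Grik4 or Opn4 or without Crh replicate 1, Drd4 replicate 2 or Grik4 replicate 3). Of 10 genes of other voltage-gated potassium and pacemaker channels, 1 was called higher and 0 lower: Kcnb2, a delayed rectifier channel, ranged from 12 to 27.7 (median 19.2) on ganglion arrays and from 4.5 to 9.73 (median 8.61) on amacrine arrays (difference 1.29 ± 0.15, adjusted p = 0.013, or 0.051 to 0.066 without any 1 line other than Crh).

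Calcium-binding proteins held 3 higher and 0 lower calls of 19 tested, with a median of 0.60. S100a10, the partner of annexin A2, ranged from 397 to 937 (median 612) on ganglion arrays and from 8.29 to 88.7 (median 27.2) on amacrine arrays. No arrays overlapped (difference 4.57 ± 0.49, adjusted p = 0.0085, or 0.051 to 0.053 without Drd4 or Grik4). Necab2, a neuronal calcium-binding protein gene, ranged from 39 to 193 (median 171) on ganglion arrays and from 5.27 to 16.9 (median 7.33) on amacrine arrays (difference 3.80 ± 0.45, adjusted p = 0.013, or 0.056 to 0.063 without Arc, Igfbp2, Rgs5 or Grik4). Of the 52 genes called higher it was the only one that also differed among the ganglion lines by the F test described below, with 47.1 in Drd4, 165 in Grik4 and 187 in Opn4. S100b ranged from 7.1 to 24.3 (median 15.1) on ganglion arrays and from 4.53 to 7.55 (median 5.2) on amacrine arrays, with some overlap (difference 1.39 ± 0.21, adjusted p = 0.038, or 0.051 to 0.15 without any 1 line other than Crh or without Crh replicate 1, Drd4 replicate 3 or Grik4 replicate 2).

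Without the 4 arrays 5 genes of this list were called higher and 1 lower, and with them 9 of the 19 had an unadjusted p below 0.05. Calb2 and Pvalb varied widely among lines of a class. Calb2, calretinin, averaged 1280.0 in Drd4, 471 in Grik4 and 373 in Opn4, and in the amacrine lines 1013 in Crh but between 7.02 and 14.6 in the other 3. Its class difference of 4.32 ± 1.60 was not called (adjusted p = 0.35). Pvalb, parvalbumin, averaged 314 in Drd4, 48 in Opn4 and 14.4 in Grik4, and 12.6 over the amacrine lines (difference 2.25 ± 0.87, adjusted p = 0.36). Necab1 ran the other way, with 6.91 over ganglion and 21.4 over amacrine lines (difference -1.63 ± 0.29, adjusted p = 0.069), and was called lower without the 4 arrays (-1.81, adjusted p = 0.012).

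The next 5 genes are named because they are among the 15 largest differences without overlap, and they belong to no list. Anxa5, the phosphatidylserine-binding annexin, ranged from 210.0 to 440.0 (median 277) on ganglion arrays and from 11.3 to 112 (median 19.8) on amacrine arrays (difference 3.71 ± 0.45, adjusted p = 0.013, or 0.053 to 0.12 without any 1 line other than Crh or without Crh replicate 1). Clic1, an intracellular chloride channel protein gene, ranged from 49.9 to 103 (median 55.2) on ganglion arrays and from 5.58 to 21.8 (median 7.92) on amacrine arrays (difference 2.77 ± 0.27, adjusted p = 0.0065). Neither gene had overlapping arrays. Fkbp1b, an immunophilin that binds the ryanodine receptor, ranged from 123 to 321 (median 242) on ganglion arrays and from 14.7 to 76.2 (median 26.2) on amacrine arrays (difference 2.87 ± 0.24, adjusted p = 0.0036). Fbxo2, a glycoprotein-binding ubiquitin ligase subunit gene, ranged from 165 to 387 (median 292) on ganglion arrays and from 9.9 to 88.5 (median 40.3) on amacrine arrays (difference 2.92 ± 0.28, adjusted p = 0.0065). Atp6ap1l ranged from 61.8 to 149 (median 109) on ganglion arrays and from below the floor to 31 (median 4.38) on amacrine arrays, and its difference was at least 4.03 (adjusted p = 0.0065). None of these 5 genes had a ganglion array within the range of the amacrine arrays.

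Acadl, the long-chain acyl-CoA dehydrogenase of fatty acid oxidation, is another of those 15 and ranged from 41.1 to 212 (median 139.8) on ganglion arrays and from 5.82 to 38.1 (median 7.44) on amacrine arrays. The classes did not overlap, and the ganglion lines ran from 66 in Drd4 to 165 in Grik4 (difference 3.62 ± 0.44, adjusted p = 0.013, or 0.055 to 0.078 without Arc, Igfbp2, Rgs5, Grik4 or Opn4 or without Crh replicate 1). Ech1, an auxiliary isomerase of the same route that was picked after its value was seen, ranged from 167 to 278 (median 233) on ganglion arrays and from 20.3 to 141 (median 75) on amacrine arrays (difference 1.76 ± 0.27, adjusted p = 0.044, or 0.051 to 0.18 without any 1 line other than Crh or without any 1 of 7 of the 21 arrays). Respiratory chain and ATP synthase genes gave 0 calls of 79 tested in limma, with 6 at an unadjusted p below 0.05 and a median of 0.13.

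The next receptor genes and the immune genes after them were picked after their values were seen and stand for no group. Chrnb3, a nicotinic acetylcholine receptor subunit, ranged from 27.4 to 53.6 (median 34.5) on ganglion arrays and from 6.61 to 17.7 (median 12.8) on amacrine arrays (difference 1.63 ± 0.20, adjusted p = 0.013, or 0.053 to 0.066 without Arc, Igfbp2, Rgs5, Drd4 or Grik4). Its partner Chrna6 had 45 over ganglion and 12.2 over amacrine lines, a difference of 1.88 ± 0.35 that missed the threshold (adjusted p = 0.07) and passed without the 4 arrays (2.19, adjusted p = 0.0054). Htr1d, a serotonin receptor gene, ranged from 14.8 to 38.7 (median 22.4) on ganglion arrays and from 6.62 to 12.7 (median 8.1) on amacrine arrays (difference 1.47 ± 0.19, adjusted p = 0.017, or 0.051 to 0.085 without any 1 line other than Crh).

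H2-Ab1, a chain of MHC class II, ranged from 14.1 to 32.6 (median 26) on ganglion arrays and from 5.1 to 11.4 (median 6.86) on amacrine arrays (difference 1.75 ± 0.18, adjusted p = 0.0082, or 0.053 to 0.068 without Grik4 or without Crh replicate 1). Psmb8, an immunoproteasome subunit gene, ranged from 11 to 34.3 (median 15.9) on ganglion arrays and from 5.53 to 11.9 (median 6.42) on amacrine arrays, with overlapping arrays (difference 1.16 ± 0.18, adjusted p = 0.039, or 0.05 to 0.18 without any 1 line other than Crh or without any 1 of 5 of the 21 arrays). Microglia express both. The summed intensity of 14 microglia markers was 123 to 2584 on ganglion arrays and 101 to 363 on amacrine arrays, and averaged 1399.6 in Grik4, 228 in Drd4 and 205 in Opn4. H2-Ab1 averaged 25.4 in Grik4, 20.8 in Drd4 and 27.4 in Opn4. Among the 14 markers 0 were called in limma, 7 had an unadjusted p below 0.05, and their median difference was 1.04. The part of microglia in these calls was not tested.

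Transcription factors of ganglion cells gave 1 higher and 0 lower calls of 26 tested, with a median of 0.56, and 4 higher and 1 lower without the 4 arrays. Irx6, an Iroquois homeobox gene, ranged from 21.5 to 55.1 (median 40.3) on ganglion arrays and from 10.6 to 23.7 (median 12.3) on amacrine arrays, with a narrow overlap (difference 1.57 ± 0.23, adjusted p = 0.038, or 0.071 to 0.17 without Arc, Igfbp2, Rgs5, Grik4 or Opn4 or without Crh replicate 1 or Drd4 replicate 2). Pou3f2, a POU-domain factor gene also called Brn2, averaged 74.2 in Drd4, 24.3 in Opn4 and 14.5 in Grik4, and 4.22 over amacrine lines, most of whose arrays were at the floor. Its arrays did not overlap, and the difference of at least 2.81 had an adjusted p of 0.056, or 0.022 without the 4 arrays. Isl1 averaged 213 over ganglion lines, and 75.5 in Crh but 7.1 to 13.7 in the other amacrine lines. Eomes, which marks melanopsin and some other ganglion cells, averaged 108 in Opn4, 37.8 in Grik4 and 9.79 in Drd4, and 8.83 over amacrine lines (adjusted p = 0.32). Atoh7, the proneural factor of early ganglion cells in development, averaged 9.69 over ganglion and 19.3 over amacrine lines (difference -0.99 ± 0.53, adjusted p = 0.51).

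The 6 genes lower in ganglion lines included 1 of transmitter synthesis. Gad2 encodes a glutamate decarboxylase, the enzyme that makes GABA, and it ranged from 13.1 to 42.3 (median 17.6) on ganglion arrays and from 58.5 to 285 (median 132) on amacrine arrays. No ganglion array reached the lowest amacrine array, and the ganglion lines lay close together at 16.9 to 22.7 (difference -2.58 ± 0.29, adjusted p = 0.011). Leaving out Drd4 or Grik4 moved the adjusted p to 0.051 or 0.053. Gad1, the other decarboxylase gene, ranged from 11.3 to 84.2 (median 34.8) on ganglion arrays and from 158 to 354 (median 207) on amacrine arrays. Its arrays did not overlap either, but the ganglion lines differed, with 79.6 in Grik4, 33 in Drd4 and 14.3 in Opn4, and the difference of -2.66 ± 0.52 was not called (adjusted p = 0.084, or 0.029 without the 4 arrays).

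Frmd5, a FERM-domain protein gene, ranged from 18.5 to 109 (median 36.1) on ganglion arrays and from 146 to 335 (median 265) on amacrine arrays (difference -2.53 ± 0.41, adjusted p = 0.047, or 0.051 to 0.18 without Arc, Igfbp2, Rgs5, Drd4 or Opn4 or without any 1 of 10 of the 21 arrays). As for Gad1 and Slc32a1, the Grik4 line was the highest of the ganglion lines, at 87.6. Vamp4, a SNARE of the trans-Golgi network, ranged from 61.8 to 121 (median 86.3) on ganglion arrays and from 180.2 to 408 (median 255) on amacrine arrays (difference -1.73 ± 0.25, adjusted p = 0.036, or 0.05 to 0.12 without any 1 line other than Crh or without Rgs5 replicate 1 or Crh replicate 1). Polb, the DNA polymerase of base excision repair, ranged from 75.9 to 177 (median 126) on ganglion arrays and from 234 to 409 (median 302) on amacrine arrays (difference -1.32 ± 0.21, adjusted p = 0.047, or 0.051 to 0.19 without any 1 line other than Crh or without any 1 of 11 of the 21 arrays). In these 3 genes all ganglion arrays were below all amacrine arrays. Amy1, an amylase gene from a family of near-identical copies, so that the identity of the transcript is uncertain, ranged from 256 to 1204 (median 468) on ganglion arrays and from 812 to 1555 (median 1117) on amacrine arrays. Its arrays overlapped (difference -1.33 ± 0.21, adjusted p = 0.047, or 0.05 to 0.2 without any 1 line other than Crh or without any 1 of 9 of the 21 arrays). Mesp2 ranged from below the floor to 13.8 (median 8.15) on ganglion arrays and from 14 to 28.8 (median 16.9) on amacrine arrays, a difference of -1.10 or lower because 1 ganglion array was at the floor (adjusted p = 0.044, with the call lost without any 1 line other than Crh or without any 1 of 10 of the 21 arrays).

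Amacrine markers as a list gave 1 lower and 0 higher calls of 12 tested, with a median of -1.42, and 5 lower calls without the 4 arrays (Gad1, Gad2, Slc32a1, Tfap2a and Meis2). Their summed intensity was 199 to 701 on ganglion arrays and 1242 to 1690 on amacrine arrays, without overlap, and 603 in the Grik4 line, 499.6 in Drd4 and 222 in Opn4. Transcription factors of amacrine cells gave 0 calls of 20 in limma (9 at an unadjusted p below 0.05, median -0.46), and 3 lower without the 4 arrays. Tfap2a, a transcription factor gene of amacrine development, averaged 9.36 over ganglion and 28.5 over amacrine lines (difference -1.60 ± 0.30, adjusted p = 0.07). Tfap2b averaged 76.3 in Grik4, 36 in Drd4 and 9.002 in Opn4, and in the amacrine lines 12 in Crh but 204 to 336 in the other 3, so Crh lay within the range of the ganglion lines. Pax6, which both classes express, averaged 116 over ganglion and 274 over amacrine lines (difference -1.24 ± 0.36, adjusted p = 0.24). Slc6a9, the glycine transporter gene, averaged 11 over ganglion and 10.2 over amacrine lines (difference 0.10 ± 0.30, adjusted p = 0.93).

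Synaptic genes gave few calls. The 6 tested genes of GABA and glycine release held 1 lower call (Gad2) and 0 higher, with 3 lower without the 4 arrays. Among 19 ionotropic glutamate receptor genes and their auxiliary subunits 0 were called in limma, with 2 at an unadjusted p below 0.05 and a median of -0.19. Cacng3, an auxiliary AMPA receptor subunit, ranged from 30.8 to 58.4 (median 49.6) on ganglion arrays and from 72.9 to 219.7 (median 137) on amacrine arrays. Its arrays did not overlap (difference -1.52 ± 0.27, adjusted p = 0.069), and it was called lower without the 4 arrays (adjusted p = 0.022). The 17 GABA and glycine receptor genes and the 22 genes of the vesicle machinery gave 0 calls each in limma, with 2 and 5 at an unadjusted p below 0.05 and medians of 0.09 and 0.15. Cplx3, a complexin gene, was lowest in Opn4 and averaged 470.0 in Drd4, 341 in Grik4 and 33.4 in Opn4, and 833 over amacrine lines (difference -2.25 ± 0.80, adjusted p = 0.33). The 33 guidance genes gave 0 calls in limma (3 at an unadjusted p below 0.05, median 0.17), and the 15 neurotrophic genes 0 calls (4 at that level, median 0.20).

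Nppb and Adcyap1 were highest in Opn4, and Igf1 was above the amacrine lines in all 3 ganglion lines. Igf1, insulin-like growth factor, averaged 329 in Opn4, 95.6 in Grik4 and 50.7 in Drd4, and 16 over amacrine lines. Its arrays did not overlap (difference 2.87 ± 0.55, adjusted p = 0.08, or 0.042 without the 4 arrays). Nppb, a natriuretic peptide gene, averaged 188 in Opn4 but 18.6 in Drd4 and 17.7 in Grik4, and 8.47 over amacrine lines (adjusted p = 0.31). Adcyap1, which encodes PACAP, a known co-transmitter of melanopsin ganglion cells, averaged 78.7 in Opn4, 17.8 in Grik4 and 14.8 in Drd4, and 7.54 over amacrine lines (adjusted p = 0.23).

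The line means of the classes overlapped for Cartpt, Npy and Vip. Cartpt, a known marker of direction-selective ganglion cells in mouse, averaged 1361 in Drd4, 95.4 in Opn4 and 31.4 in Grik4, and 1507 in Arc, 273 in Igfbp2, 45.9 in Rgs5 and 28.6 in Crh. Npy averaged 46.4 over ganglion lines, and 1070.3 in Igfbp2, 694 in Arc, 86.9 in Crh and 32.7 in Rgs5. Vip averaged 7.83 over ganglion lines, and 224 in Arc and 60.5 in Igfbp2, with the other amacrine lines near the floor. Of 16 neuropeptide genes tested 0 were called by limma (5 at an unadjusted p below 0.05, median 0.03), and 1, Cck, was called higher without the 4 arrays (2.47, adjusted p = 0.0025).

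**Figure D4:**
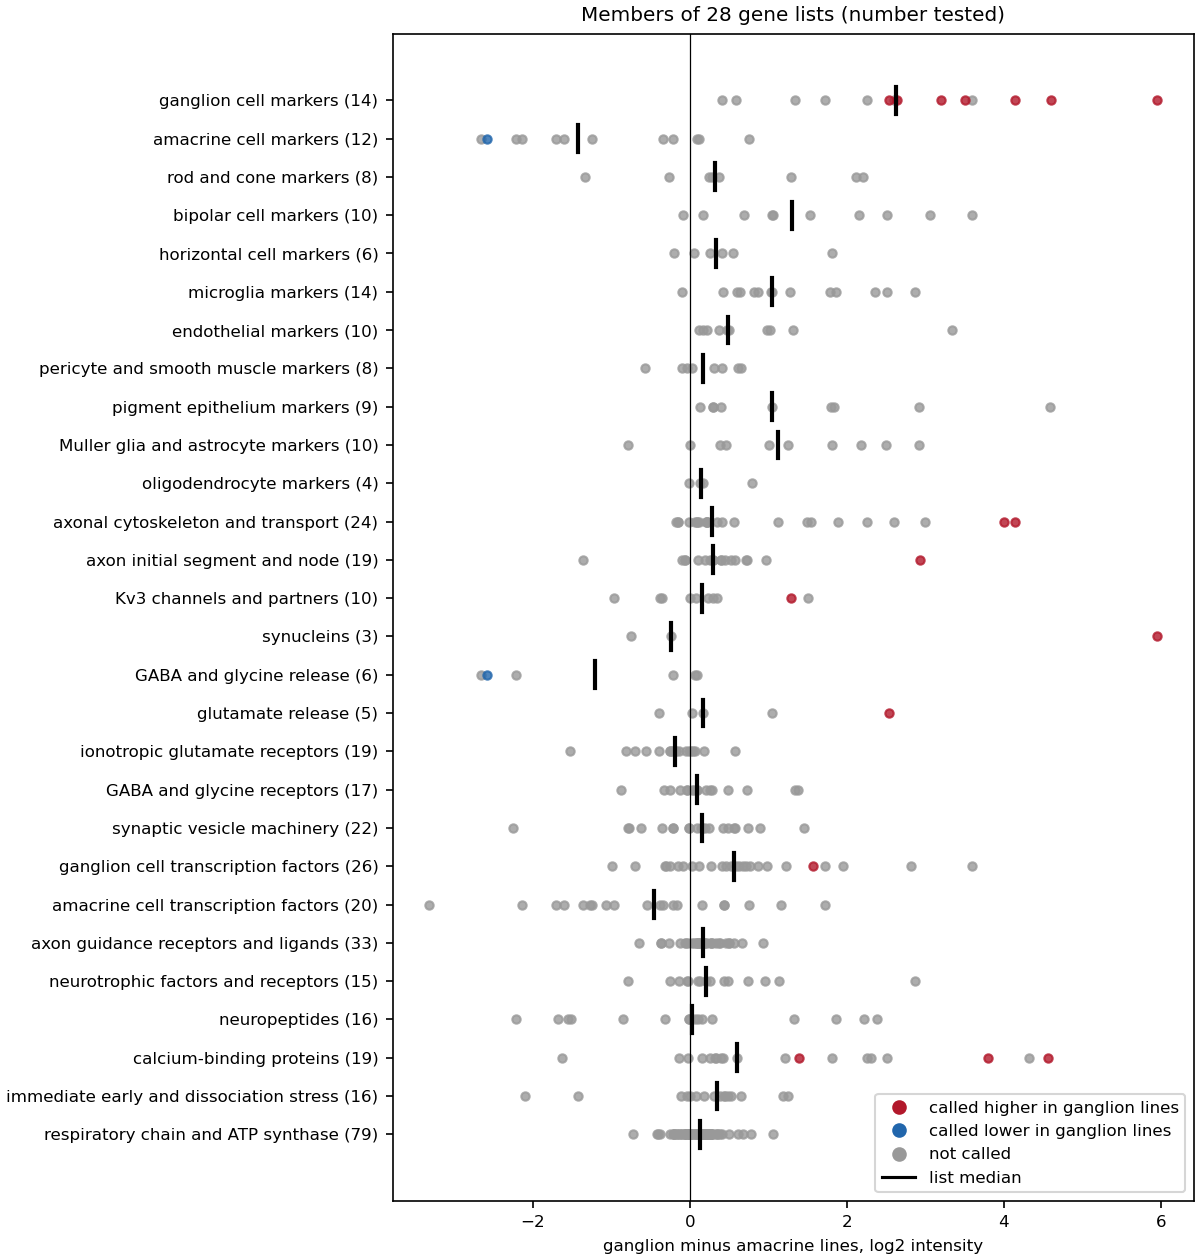
Ganglion minus amacrine difference in log2 intensity (horizontal) of each tested member of 28 gene lists (rows, with the number tested), red where called higher in ganglion lines, blue where called lower, grey where not called, with a black bar at the list median. The 14 ganglion markers all lie right of 0 with a median of 2.62, and the 12 amacrine markers have a median of -1.42. The endothelial and pigment epithelium markers also all lie right of 0.

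Markers of other retinal cells were present in both classes and uneven between arrays, with more positive than negative differences in each list. Bipolar markers summed to 253 to 3892 on ganglion arrays and 82.5 to 1939 on amacrine arrays, with 0 of 10 called and a median difference of 1.30. Müller glia and astrocyte markers summed to 444 to 8742 on ganglion arrays and 616 to 4560 on amacrine arrays (0 of 10 called, median 1.13). Rod and cone markers summed to 85.8 to 1839 on ganglion arrays and 13.7 to 2787 on amacrine arrays (0 of 8, median 0.33). Pigment epithelium markers summed to 81.2 to 3278 on ganglion arrays and 63.0 to 1431 on amacrine arrays (0 of 9, median 1.05). Within each of these 4 lists the sums were highest in the lines that hold arrays that stand apart.

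In limma 3 bipolar, 5 glial, 2 rod and cone and 4 pigment epithelium markers had an unadjusted p below 0.05. Without the 4 arrays 1 marker each of the bipolar (Isl1), horizontal (Calb1), pigment epithelium (Ttr) and glial (Vim) lists was called higher. Of all these markers, 1 rod and cone marker was at the floor on every amacrine array, and none on every ganglion array.

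Single genes show where these markers lay. Gnat1, the rod transducin gene, averaged 173 in Drd4, 73.9 in Opn4 and 51.1 in Grik4, and 840.5 in Crh with the other amacrine lines at or near the floor. Ttr, transthyretin, averaged 654 in Grik4, 133 in Drd4 and 43.7 in Opn4, and 6.47 over amacrine lines (difference 4.59 ± 0.79, adjusted p = 0.063, or 0.022 without the 4 arrays). Endothelial markers summed to 142 to 1364 on ganglion arrays and 112 to 405 on amacrine arrays, with 0 of 10 called and a median of 0.48, and Cldn5 averaged 681 in Grik4, 232 in Drd4 and 19.98 in Opn4, and 14.4 over amacrine lines. Pericyte markers summed to 51.7 to 583 on ganglion arrays and 55.4 to 1036 on amacrine arrays (0 of 8 called, median 0.17), with the highest line mean in Rgs5, whose name gene is on that list. Oligodendrocyte markers summed to 38.9 to 58.03 on ganglion arrays and 31.4 to 47.4 on amacrine arrays (0 of 4, median 0.15). Horizontal cell markers summed to 308 to 824 on ganglion arrays and 287 to 436 on amacrine arrays (0 of 6, median 0.33). An unadjusted p below 0.05 was found for 4 endothelial, 0 pericyte, 1 oligodendrocyte and 1 horizontal cell markers. The part of other cells in the class differences was not tested. Opn4, the ganglion line with none of the 4 arrays, had mean sums of 812 for glia, 205 for microglia and 177 for endothelium. The same sums were 3894, 228 and 433 in Drd4 and 2249, 1399.6 and 989 in Grik4. In Opn4 and Drd4 the ganglion identity genes lay at 1664 against 1459.9 for Sncg, 508 against 538 for Nefl and 43.5 against 59.6 for Slc17a6. Slc17a6 was lowest in Grik4. A link of these values to the sums was not tested.

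Early response and stress genes, which dissociation can induce, gave 0 calls of 16 in limma (4 at an unadjusted p below 0.05, median 0.34). Hspa1a, a heat shock protein gene, averaged 16.2 in Opn4, 6.08 in Grik4 and the floor in Drd4. In the amacrine lines it averaged 8.63 in Crh but 47.4 to 49.9 in Arc, Igfbp2 and Rgs5 (difference -2.10 ± 0.70, adjusted p = 0.3).

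The genes that name the lines were examined in every line as a check of the labels. Opn4, which encodes melanopsin, averaged 149 in its own line, against 5.18 to 13.8 in the other 6. Igfbp2 averaged 1325 in its line, against 11.4 to 226 elsewhere. Rgs5 averaged 183 in its line, against 6.81 to 92.3 elsewhere, and Crh 307 in its line, against the floor to 15.4 elsewhere. Arc was highest in its own line by a small margin, 18.5 against 9.13 to 13.9. Grik4 was not highest in the Grik4 line, 7.05 against 7.2 to 9.46 in the others, and Drd4 was too dim to be tested, above the floor on 1 array of its own line (8.81) and on 1 of Rgs5 (16.1). A Cre or reporter transgene need not follow the level of the gene it is named for, so a low level of such a gene does not contradict a label.

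Lines of a class also differed from each other, by a moderated F test over the 21 arrays (adjusted p below 0.05 and a range of line means of at least 1). That test measures the spread between the 3 arrays of a line and not that between lines, so its counts and the class counts are not on one footing. Among the 3 ganglion lines 400 probe sets differed (3.01%), or 638 without the 4 arrays. Among the 4 amacrine lines 1188 differed (8.94%), or 492 without the 4 arrays. Of the 52 genes called higher 1 differed among ganglion lines, and of the 6 called lower 0 differed among amacrine lines; a range between lines adds to the error of the class test, so a gene that differs among lines is less likely to be called between classes.

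The class difference was measured a second time on other arrays, in batch 1, where PV (129SVCB6(PV-CRE#32)SA-09 mice crossed to ThyStopY) is the one ganglion line and the amacrine lines are Arc 1st (as above), ChAT (129S6-Chat_tm1(cre)Lowl/J crossed to Rosa26-LSL-RFP, starburst cells, labelled RFP), Fam81a (Tg(6430514L14Rik-EGFP)95Gsat, GFP) and Ier5 (Tg(Ier5-EGFP)267Gsat, GFP), with 3 arrays each and the same background label. In that batch the ganglion line is labelled GFP. None of those 15 arrays fell below a median r of 0.89 with the others. Because PV is 1 line, the spread between ganglion lines was taken from the other groups. Those groups include the batch 3 lines, so the PV calls are not independent of the batch 3 calls. PV gave 25 higher (0.188%) and 1 lower call (0.00752%), or 15 calls in all without Arc, the line of both batches. Of the 52 genes called higher in batch 3, 18 were called higher in PV, which is 34.6% of the 52 and 72% of the 25. In all, 48 of the 52 were positive in PV, as 50.3% of all tested probe sets were, and 37 were at least 1, as 3.17% of all were. The 4 negative ones were Il10rb (-0.77), Psmb8 (-0.21), Kcnb2 (-0.15) and Tm6sf1 (-0.11), none of them called. All 6 genes called lower in batch 3 were negative in PV and 0 were called lower.

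Sncg differed by 6.07 ± 0.49 in PV (adjusted p = 0.00031), S100a10 by 5.76 ± 0.67 (adjusted p = 0.0037), Tppp3 by 4.83 ± 0.47 (adjusted p = 0.0017) and Slc17a6 by 2.88 ± 0.42 (adjusted p = 0.018). Nefl differed by 4.93 ± 0.95 and was not called (adjusted p = 0.074), nor was Gad2, at -1.27 ± 1.00 (adjusted p = 1). The difference between the batch 3 and batch 1 differences passed for 0 of 13296 probe sets by limma (0%). An unadjusted p below 0.05 was found for 361 of the 13296 and for 18 of the 58 called in batch 3. With 1 ganglion line in batch 1, the count of 0 does not show that the class differences were alike in both batches.

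**Figure D5:**
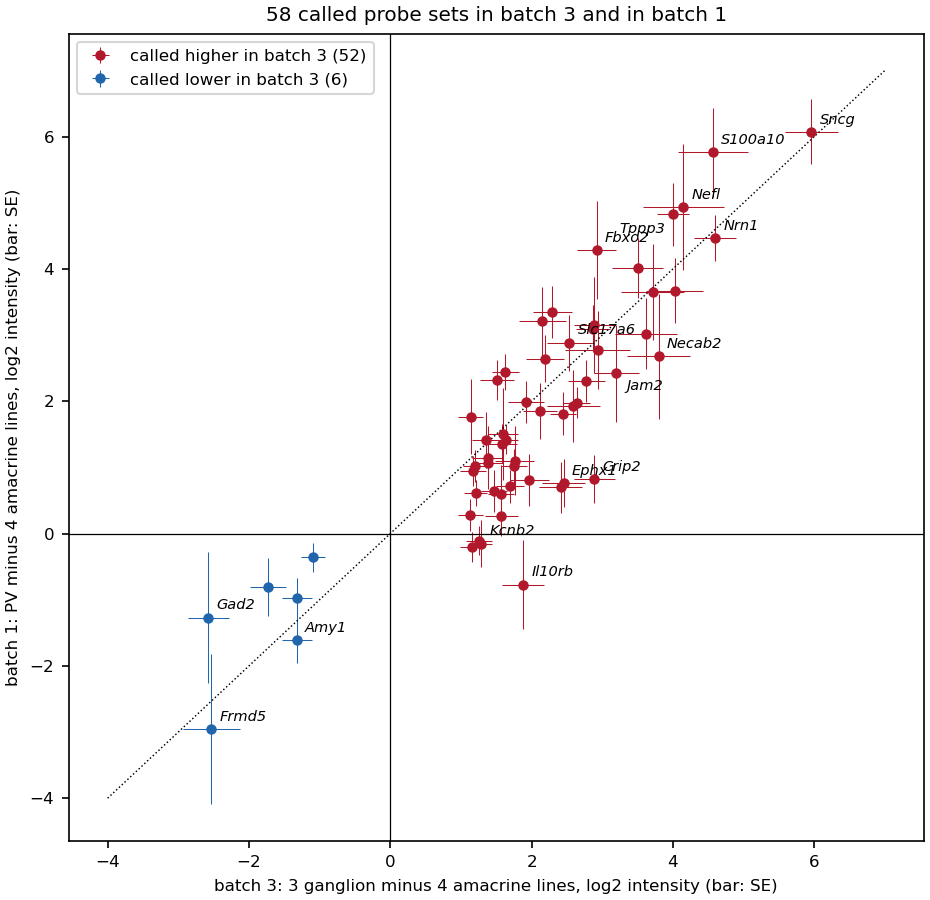
Log2 difference of the 58 called probe sets in batch 1 (PV minus 4 amacrine lines, vertical) against batch 3 (3 ganglion minus 4 amacrine lines, horizontal), with bars of 1 standard error and a dotted line of equality. Of the 52 red points, called higher in batch 3, 48 lie above 0 on the vertical axis, and the 6 blue points, called lower, all lie below 0.

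The remaining genes called higher are given by their range. They were Crip2, Lmo1, Pcolce2, Ephx1, Anxa6, BC028528, Clvs2, Fxyd7, Selenov, Ddah2, Sdcbp, Myl2, Il10rb, Deptor, Prelid2, 2900055J20Rik, Gamt, Galnt9, Hint3, Lrrn1, Emb, Tm6sf1, Eml1, Kcnk4, Ggact and Brip1os, with differences from 1.13 (Brip1os) to 2.89 (Crip2). Of these 26 the calls of Crip2, Anxa6 and Prelid2 held without any 1 line or array, and each of the other 23 was lost in at least 1 such fit. Crip2, a LIM-domain protein gene, ranged from 53 to 203 (median 163) on ganglion arrays and from 8.78 to 56.2 (median 18.1) on amacrine arrays. Lmo1, a LIM-only transcriptional cofactor gene, ranged from below the floor to 169.9 (median 51.3) on ganglion arrays and from below the floor to 24.3 (median below the floor) on amacrine arrays. Arrays of the classes overlapped in both genes. Anxa6, a further annexin, ranged from 42.1 to 65.5 (median 51.2) on ganglion arrays and from 4.34 to 17.5 (median 9.79) on amacrine arrays, without overlap (difference 2.44 ± 0.18, adjusted p = 0.0013). Fxyd7, a regulator of the sodium pump, ranged from 34.6 to 182 (median 92.6) on ganglion arrays and from 14 to 26.7 (median 20.2) on amacrine arrays, again without overlap (difference 2.19 ± 0.27, adjusted p = 0.014, or 0.05 to 0.06 without any 1 line other than Crh or without Drd4 replicate 3).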

How the data were processed

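Gene expression was measured on Affymetrix Mouse Gene 1.0 ST arrays, 21 of them in batch 3 and 15 in batch 1, each of 200 sorted cells. The deposited intensity values are linear and quantile-normalised across the 78 arrays (sorted columns are identical), and RMA with the oligo package in R 2.11.1 and the genome mm9 are named per the submitters' processing notes. The lowest values of 70 arrays are sorted by probe set number. Values under 3.99, the highest end of such a run on any array, were raised to that floor (10.5% of all values) before log2.

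The table has 22347 probe sets; 735 with several gene symbols and 2166 with none listed were left out. Linear models with limma 3.58.1 (R 4.3.3, eBayes with a trend) were fitted to the 7 line means, with Benjamini-Hochberg adjustment over all 13296 probe sets, after a check on simulated data. The p-values measure the spread between lines, and the number of arrays limits the precision. PV was set against the batch 1 amacrine lines in 1 fit over the line means of both batches. Replicate numbers did not pair arrays of different lines (mean correlation of deviations -0.02 for equal and 0.01 for unequal numbers).

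The members and gene lists were chosen with earlier results of these data known. Genes named were the 15 largest non-overlapping calls that were higher and the 5 that were lower (a rule of up to 15 in each direction), the 5 calls in each direction with the widest range among lines of the higher class, the 4 markers, the 7 genes that name the lines, and list members as examples or exceptions; the smaller calls (Ech1, the receptor and immune genes and the remaining calls), and the PV exceptions, were chosen after their values were seen. Alternatives varied the unit, floor, filter, probe sets, centring, lines and arrays. Leaving out the 4 arrays and comparing the lines labelled RFP alone were added after seeing the data. Promoters came from RefSeq (GRCm38.p6), whose coordinates were not mixed with those of mm9. Figures were drawn with matplotlib 3.10.9.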

Additional observations from a re-analysis of the deposited data

Results flagged for a closer look

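Among 141 genes examined for a single ganglion array far from the other 8, 10 genes had one. Chance gives about 1 in 20, so the count is near that share and is not read as a result. In 9 genes the array was Drd4 replicate 1, and in the potassium channel gene Kcnk4 it was Grik4 replicate 2, the highest at 80.04. Both are among the 4 arrays that stand apart. Drd4 replicate 1 was the lowest ganglion array for Sncg, at 1095, still far above every amacrine array. It was also the lowest for the calcium sensor gene Hpcal1 (3.76), the chaperone gene Hsp90aa1 (3.85), the complex I subunit gene Ndufa10 (3.93), and Lmo1 (2.40), all 4 below the floor of 3.99, and for H2-Ab1 (14.1). It was the highest ganglion array for the glycine transporter gene Slc6a9 (37.6), the homeobox gene Prox1 (46.9) and the calbindin gene Calb1 (78.6). Differences between batch 3 and batch 1 passed the threshold for 0 of 13296 probe sets in limma. An unadjusted p below 0.05 was found for 361 of them, including 18 of the 58 called in batch 3.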

How the results depend on the processing

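The 58 calls of batch 3 numbered 40 to 65 with no floor, no or a stricter filter, 1 probe set per gene, all probe sets, centred arrays or no variance trend. The 6 lower calls were less stable, with 2 for no floor, 2 for no filter, 3 for all probe sets, 10 for the stricter filter, 10 for centred arrays and 8 for no variance trend. With arrays as the unit there were 292 calls with the line as a random block, 670 with 1 mean per line and 658 with a replicate block added, or 748 without the block and without the 4 arrays. Those fits measure the spread between arrays of a line in place of, or beside, that between lines. All 11 lines of batch 3 together gave 109. Leaving out a line gave 19 (Arc), 23 (Igfbp2), 19 (Rgs5), 28 (Drd4), 20 (Grik4), 39 (Opn4) and 467 (Crh). Leaving out 1 array gave 25 (without Crh replicate 1) to 150 (without Crh replicate 2). There were 334 calls without the 4 arrays and 4 in the lines labelled RFP alone, a fit with fewer lines. Among ganglion lines 400 probe sets differed, 638 without the 4 arrays and 346 with all arrays and the replicate block. Among amacrine lines 1188 differed, 492 without the 4 arrays and 957 with all arrays and the block. The PV calls numbered 26, 15 without Arc and 53 without the 4 arrays. The cause of these changes was not tested. Over the alternatives run, no value of a named gene that was called changed sign. Sncg kept its call in 42 of 42 alternatives, Nrn1, Tppp3, Rbpms, Rbpms2, Jam2, Fbxo2, Fkbp1b, Clic1, Atp6ap1l, Anxa6 and Crip2 in 41, S100a10 in 40, Gad2 and H2-Ab1 in 39, Necab2 in 37, Chrnb3 in 36, Nefl, Slc17a6, Acadl and Htr1d in 35, Anxa5 in 34, Vamp4 and Fxyd7 in 33, Irx6 in 32, Lgi1 in 30, Ech1 in 25, Frmd5 and Amy1 in 22, Polb and Tmsb10 in 21 and Mesp2 in 18. Kcnb2 kept it in 32 of 41, S100b in 30 and Psmb8 in 27. Signal near background limits Nrn1, Jam2, Lgi1 and Atp6ap1l, whose ratios are lower bounds.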

Other observations

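One amacrine array carried the name gene of another line: Crh was at 103 on Rgs5 replicate 2, against 2.97 and 8.94 on the other Rgs5 arrays and 221 to 368 on the Crh arrays. Drd4, too dim to be tested, was at 16.1 on the same array, its highest value of the 21.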
